A study of Homo sapiens with 3 samples.

Results

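The HSP, DNAJ and CCT genes encode the main chaperone machines of the cell and their J-domain partners. Members were chosen by gene symbol alone, as HSPA, HSPB, HSPD, HSPE, HSPH and HSP90 genes, DNAJA, DNAJB and DNAJC genes, and CCT2 to CCT8 with TCP1. The rule found 90 of the 18417 genes measured by probe sets with 1 gene symbol, of which 77 are protein-coding and 13 are pseudogene copies in RefSeq. Another 12 probe sets carry a member symbol together with a second symbol and are reported apart. Total RNA came from 3 independent, untreated and exponentially growing cultures of C33A, a human cervical carcinoma line, each hybridized to 1 Affymetrix Human Gene ST array. All samples form 1 group, with no stress, no control condition and no second line, so that only levels and their spread between cultures can be given. Values are log2 intensities that the authors normalized by the Robust Multichip Average method (RMA). The number of arrays limits the precision, and p-values are not given because no groups were compared.

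HSP70 proteins bind short hydrophobic stretches of unfolded proteins in a cycle driven by ATP. J-domain proteins of the DNAJ family bring clients to HSP70 and stimulate its ATPase, and HSP110 proteins act as nucleotide exchange factors that release the client. HSP90 acts later, on kinases and receptors that are nearly folded, while HSP60 with its lid HSP10 and the ring complex CCT (also called TRiC) enclose whole proteins. Under heat or proteotoxic stress the heat shock factor HSF1 binds repeats of the motif GAA, the heat shock element, before many of these genes.

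The arrays carry no detection call, so a bound was set from families that few tissues express. Of 459 genes for beta-defensins, keratin-associated proteins and receptors of taste and smell, 95% lay below 6.42 log2, which served as the bound. Probes differ in how strongly they bind their targets, which makes any order of genes approximate, and no fold between genes is given. In bulk RNA, fewer expressing cells and less RNA per cell cannot be told apart. Pearson's r over all probe sets was from 0.993 to 0.994 between the cultures. Of 7 epithelial marker genes only KRT18 (7.75 log2) and KRT14 (6.86) exceeded the bound, and KRT8, KRT19, KRT5, CDH1 and EPCAM did not. Of 6 mesenchymal markers COL3A1 (11.36 log2), VIM (9.88) and COL1A1 (7.24) exceeded it, of 4 endothelial markers none, and of 4 leukocyte markers only PTPRC (8.82). Most of the listed epithelial markers were thus not above the bound of 6.42 log2 in this carcinoma line. That statement depends on the bound. Without the keratin-associated protein genes the bound was 5.43 log2, and KRT19 (5.92) and KRT8 (5.75) also lay above it. KRT5, CDH1 and EPCAM stayed below it, so most of the listed epithelial markers exceeded this lower bound. Among the other markers COL1A2, PDGFRB and CD14 also did so.

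The chaperone genes were spread over the whole range of the array and crowded at its top. Their levels ran from 3.22 to 13.65 log2, with a median of 8.51 log2 against 6.91 log2 for the 18327 other genes. The median of the members minus that of all genes was 1.59 ± 0.01 log2 (SD, n = 3 cultures). Of the members, 64 (71.1%) lay above the bound, where 56.4% of all genes do, and 61 did so in each culture against that culture's own bound. Decile 10, the highest of 10 equal groups of genes ordered by level, held 32 members (35.6%), against the 10% of all genes that lie there by construction. The 13 pseudogene copies placed 2 genes in this decile and the 77 protein-coding members 30. At the other end, 20 members (22.2%) were in the lowest 3 deciles, against 30% of all genes. Members near the bound were CCT8L2 at 6.51, DNAJC27 at 6.45 and HSPA1L at 6.43 log2 just above it, and HSP90B3P at 6.37 and HSPA2 at 6.29 just below it. Against each culture's own bound, CCT8L2 and DNAJC27 were above in 2 of 3 cultures, and HSPA1L, HSP90B3P and HSPA2 in 1 of 3.

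**Figure D1:**
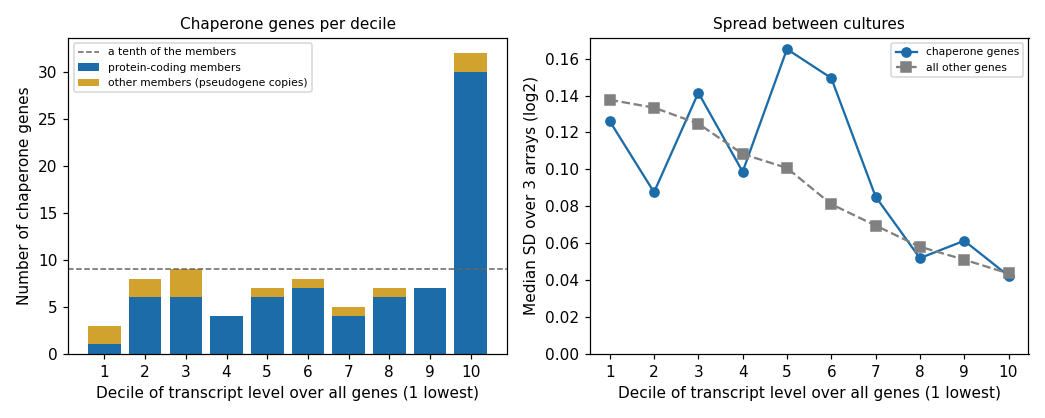
Left, number of chaperone genes (y axis) per decile of level among all genes (x axis, 1 lowest), protein-coding members in blue and pseudogene copies in yellow, with a dashed line at 10% of the members. Right, median SD over the 3 arrays (log2, y axis) by decile for chaperone genes and for all other genes. Decile 10 holds 32 of the 90 members, and its median SD was 0.04 for members and 0.04 for other genes.

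Constitutive and organelle HSP70 genes were at the top of the array, and the inducible HSPA6 was in decile 4, below the bound of 6.42 log2. HSPA8, the constitutive cytosolic HSC70, had the highest level of all members, at 13.68, 13.62 and 13.65 log2 in cultures 1, 2 and 3. HSPA9, the mitochondrial HSP70 (mortalin), was at 12.48, 12.48 and 12.51, and HSPA5, the endoplasmic reticulum (ER) HSP70 known as BiP, at 11.92 and 11.95 in cultures 1 and 2 with a mean of 11.96 ± 0.04 (SD, n = 3). HSPA13, a microsomal member, was at 10.09, 10.15 and 10.10 log2. These 4 genes were in decile 10, and the values of neighbours in this order did not overlap between cultures. HSPA14, which works at the ribosome with DNAJC2, was at 8.53, 8.48 and 8.51 log2 and DNAJC2 at 8.60, 8.51 and 8.63, so both lay in decile 8. The divergent member HSPA12A had 8.05, 8.22 and 8.25 log2. Its paralog HSPA12B had 6.96, 6.38 and 6.47 log2, highest in culture 1 and above the bound of its own array in all 3. HSPA2, best known from spermatogenesis, had 6.29, 6.45 and 6.12 log2, and overlapped with HSPA1L, which in turn overlapped with HSPA12B. HSPA6, which is induced by strong stress, had 5.53, 5.67 and 5.69 log2 and lay below the bound in all cultures. This call depends on the bound. Without the keratin-associated protein genes the bound was 5.43 log2, and the HSPA6 mean of 5.63 lay above it.

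The stress-inducible pair HSPA1A and HSPA1B could be read only together, and at a high level. The 5 probe sets that carry both symbols fell into a pair near 11.3 log2 and a trio near 10.6 log2. The highest of them had 11.26, 11.30 and 11.29 log2 in cultures 1, 2 and 3. The lowest value, 10.53, 10.54 and 10.61 log2, was shared to the last digit by 2 of the probe sets, which are thus 1 measurement. Over the 4 distinct probe sets the mean was 10.93 ± 0.02 log2 (SD, n = 3), all of them in the range of decile 10. The neighbouring HSPA1L, whose annotated start lies 260 bases from that of HSPA1A on the opposite strand, was at 6.40, 6.49 and 6.40 log2. Its 3 probe sets had identical values and also count as 1 measurement. A probe set shared by HSPA6 and the HSPA7 pseudogene gave 8.04, 7.99 and 7.89 log2, above the bound, while the probe set of HSPA6 alone was below it. Which of these 2 genes the shared signal comes from cannot be told apart.

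The protein-coding HSP110 and HSP90 genes found by the symbol rule were all in decile 10. The mitochondrial HSP90 gene TRAP1, which the rule does not find, averaged 8.56 log2, in decile 8. HSPA4 had 11.36, 11.29 and 11.31 log2, HSPH1 (HSP105) 10.74, 10.76 and 10.79 log2, and HSPA4L 9.81, 10.07 and 10.04 log2. HSPA4L was lowest in culture 1, by more than its values in cultures 2 and 3 differed. The constitutive cytosolic HSP90AB1 had 13.19, 13.09 and 13.08 log2, the inducible cytosolic HSP90AA1 12.91, 12.79 and 12.79, and the ER member HSP90B1 (GRP94) 12.48, 12.37 and 12.45. The order HSP90AB1, HSP90AA1, HSP90B1 was the same in each culture, without overlap. All 3 had their highest value in culture 1, where 39.2% of all genes had theirs.

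Pseudogene copies of HSP90 were spread from decile 1 to decile 10. HSP90AA2P had 11.38, 10.99 and 11.21 log2 and HSP90AB3P 10.94, 10.74 and 10.72 log2, both in decile 10. A further 3 copies, HSP90AA6P, HSP90AB2P and HSP90AA4P, exceeded the bound with means from 7.05 to 9.0 log2, and the other 6 did not, down to HSP90AA5P at 3.22 log2. The SD of the 11 copies had a median of 0.14 log2, against 0.06 for the 3 protein-coding HSP90 members. Only 2 of the copies are in decile 10, where all 3 of those members lie, so levels are not matched here. Among genes that are not members the median SD was 0.14 in decile 1 and 0.04 in decile 10. Copies of this kind are close in sequence to HSP90AA1, HSP90AB1 or HSP90B1, and whether their signal comes from the copy or from the parent mRNA was not tested. The copies DNAJA1P5 (3.76 log2) and DNAJB3 (5.00 log2) were below the bound.

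**Figure D2:**
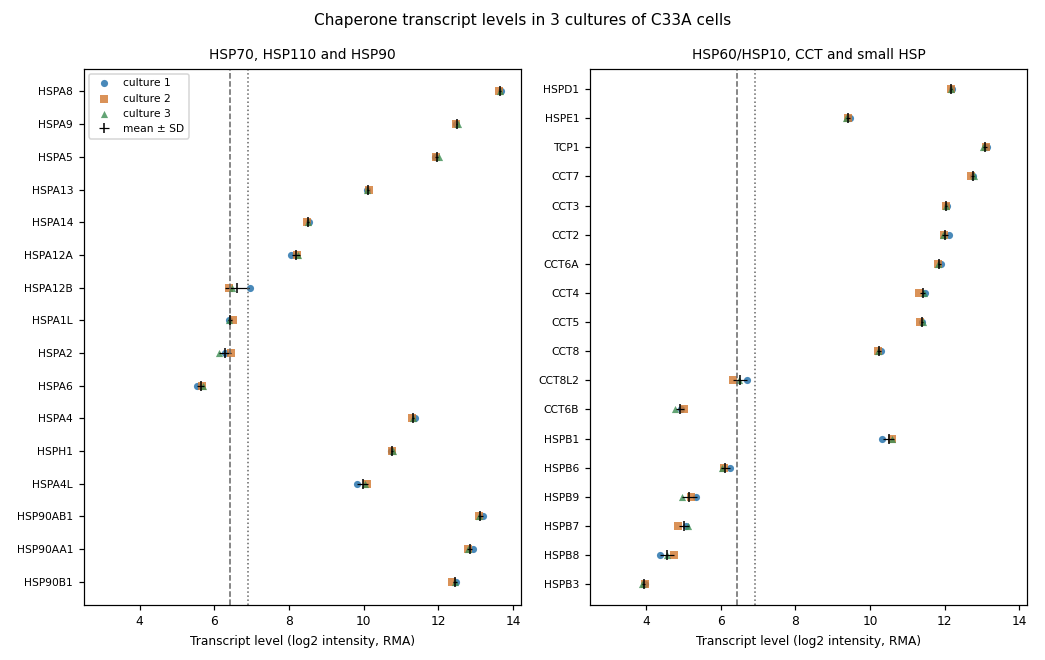
Transcript level (log2 intensity, x axis) of each protein-coding HSP70, HSP110, HSP90, HSP60/HSP10, CCT and small HSP member (y axis), with 1 symbol per culture and the mean ± SD over 3 arrays in black. The dashed line is the bound of 6.42 and the dotted line the median of all other genes, 6.91. HSPB1 is the only small HSP right of the bound, and the 8 subunits of the CCT ring lie between 10.24 and 13.08.

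Heat shock elements stood before several of the highest members and before the low HSPA6. The 250 bases before each annotated start in RefSeq (GRCh38.p14) were searched on both strands for 3 alternating units, GAA, then 2 free bases, then TTC, then 2 free bases, then GAA, or its reverse complement, which starts with TTC. A 2-unit form, GAA and TTC in either order with 2 free bases between them, reads the same on both strands and is contained in the longer motif. Of the members, 70 had a start in the table, and 6 of them (8.57%) held the 3-unit form, against 0.513% of all measured genes with a start and 0.441% of the 35116 windows in the table. These genes were HSPA8, HSP90AA1, HSP90AB1, HSPD1, DNAJB6 and HSPA6. The first 5 were in decile 10, and HSPA6, whose motif begins 74 bases before the start, was in decile 4 on its own probe set. The probe set that HSPA6 shares with HSPA7 averaged 7.98 log2, in the range of decile 7, and its source cannot be told apart. The median level was 12.50 log2 over the 6 genes with the motif and 8.81 log2 over the 64 without it, 24 of which were also in decile 10. A match is a description of letters and not a measured binding site. The sequences are shown because the same motif stands before high genes and before HSPA6, which is low on its own probe set. They run 5′ to 3′ on the gene's own strand, with the matched letters in capitals.
HSPA8, distal (chr11:123062324-123062386, minus strand): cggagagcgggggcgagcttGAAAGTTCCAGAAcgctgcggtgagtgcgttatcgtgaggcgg
HSPA8, proximal (chr11:123062149-123062221, minus strand): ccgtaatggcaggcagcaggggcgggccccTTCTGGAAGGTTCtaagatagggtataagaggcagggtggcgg
HSP90AA1 (chr14:102087090-102087162, minus strand): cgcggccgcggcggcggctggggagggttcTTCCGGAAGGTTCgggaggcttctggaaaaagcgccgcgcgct
HSP90AB1, distal (chr6:44247748-44247820, plus strand): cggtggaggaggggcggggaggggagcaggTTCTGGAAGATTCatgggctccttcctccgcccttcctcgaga
HSP90AB1, proximal (chr6:44247801-44247873, plus strand): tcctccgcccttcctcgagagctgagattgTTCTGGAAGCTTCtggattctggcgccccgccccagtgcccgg
HSPA6 (chr1:161524436-161524508, plus strand): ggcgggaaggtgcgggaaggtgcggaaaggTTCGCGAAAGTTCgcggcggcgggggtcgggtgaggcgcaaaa
DNAJB6 (chr7:157336843-157336915, plus strand): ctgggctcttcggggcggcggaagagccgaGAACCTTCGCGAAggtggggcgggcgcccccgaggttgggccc
HSPD1 (chr2:197500061-197500090, minus strand): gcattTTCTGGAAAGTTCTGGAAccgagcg

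In HSPA8 and HSP90AB1 the motif occurred at a pair of separate positions, and in HSPD1 a pair of overlapping matches made 1 run of 18 bases. The HSPD1 run lies on the far side of the start of HSPE1, the gene that faces it. The 2-unit form was found before 21 members (30%), against 12.9% of measured genes. It also stands before HSPA1A and HSPA1B, which are not among these genes, and both stretches are shown because the probe sets do not separate this pair.
HSPA1A (chr6:31815407-31815474, plus strand): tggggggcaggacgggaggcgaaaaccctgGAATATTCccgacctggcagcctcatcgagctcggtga
HSPA1B (chr6:31827603-31827670, plus strand): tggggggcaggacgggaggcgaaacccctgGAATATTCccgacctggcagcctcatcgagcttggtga

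The chaperonins were high in both compartments. HSPD1 (HSP60), which forms the mitochondrial folding chamber, had 12.19, 12.17 and 12.17 log2, one of the smallest spreads among the members (SD 0.008, n = 3). HSPE1 (HSP10), its lid, had 9.45, 9.40 and 9.36 log2, in decile 9. The starts of HSPD1 and HSPE1 lie 105 bases apart on opposite strands, and HSPE1 was lower in every culture.

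All 8 subunits of the cytosolic CCT ring, which folds actin and tubulin, were in decile 10. Each ring contains every subunit in equal number, while the signals ran from 10.24 to 13.08 log2. TCP1, the alpha subunit, had 13.13, 13.09 and 13.03 log2 and CCT7 had 12.75, 12.71 and 12.79. CCT3, at 12.07, 12.02 and 12.04 log2, and CCT2, at 12.10, 11.98 and 11.96, overlapped. CCT6A had 11.90, 11.82 and 11.83 log2. CCT4, at 11.47, 11.32 and 11.43, and CCT5, at 11.39, 11.35 and 11.40, overlapped as well. CCT8 was the lowest subunit, at 10.30, 10.21 and 10.20 log2. The other neighbours in this order did not overlap. Of the 8 subunits, 6 had their highest value in culture 1, where 39.2% of all genes had theirs. The median deviation of the subunits from their own means was 0.05 log2 there, against 0.0089 among genes that are not members. CCT6B, the testis form of the zeta subunit, had 4.94, 5.01 and 4.78 log2 and was below the bound, and the CCT-like gene CCT8L2 had 6.70, 6.33 and 6.49 log2, above the bound of its own array in 2 of 3 cultures.

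Of the small HSPs only HSPB1 was above the bound. Small HSPs carry an alpha-crystallin domain and hold unfolded proteins without ATP. HSPB1 (HSP27) had 10.33, 10.57 and 10.59 log2, in decile 10 and lowest in culture 1. HSPB6, a muscle form, had 6.25, 6.09 and 6.03 log2. Its mean of 6.12 lay above the bound of 5.43 log2 that was set without the keratin-associated protein genes. HSPB9, of testis, had 5.33, 5.20 and 4.96 log2, and overlapped with the cardiac and muscle form HSPB7 at 5.07, 4.86 and 5.12. HSPB8, which acts with BAG3, had 4.38, 4.75 and 4.56 log2, and HSPB3 of muscle 3.96, 3.96 and 3.88. A probe set shared by HSPB2 and its read-through with C11orf52 averaged 5.26 log2, and the one shared by that read-through and C11orf52 averaged 5.60, both below the bound.

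DNAJA and DNAJB proteins deliver unfolded clients to HSP70. Of their protein-coding genes, 3 of 4 DNAJA (75%) and 9 of 12 DNAJB (75%) were above the bound, against 56.4% of all genes. DNAJA1 had 11.02, 10.99 and 11.05 log2 and DNAJA2 10.36, 10.13 and 10.29, both cytosolic, while the mitochondrial DNAJA3 (TID1) had 9.84, 9.83 and 9.86. All 3 were in decile 10. DNAJA4 had 5.04, 5.00 and 5.16 log2, in decile 3. DNAJB1 (HSP40), the main stress-inducible partner of HSP70, had 11.38, 11.44 and 11.42 log2 and led the DNAJB genes. DNAJB11 (ERdj3), a partner of BiP, had 10.77, 10.63 and 10.73 log2. DNAJB4, a close relative of DNAJB1, had 9.35, 9.20 and 9.34 log2, and DNAJB5, DNAJB2, DNAJB12 and DNAJB14 averaged 8.51, 8.33, 8.14 and 7.38. DNAJB9 (ERdj4), a BiP partner induced in ER stress, was the lowest DNAJB gene above the bound, at 6.75, 6.91 and 6.72 log2. Below it were DNAJB13, a component of the sperm and cilium axoneme, at 4.77, 4.72 and 4.86 log2, and the testis gene DNAJB8 at 4.76, 4.59 and 4.74, which overlapped. DNAJB7, another testis gene, was lowest at 3.97, 3.98 and 4.24 log2.

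DNAJC genes share only the J domain and serve specialised tasks. Of the 27 members, 4 (14.8%) were in decile 10, against 10% of all genes, and 21 (77.8%) were above the bound, against 56.4%. DNAJC8, which is linked to splicing, had 10.91, 10.86 and 10.92 log2. DNAJC7 (TPR2), which binds both HSP70 and HSP90, had 10.37, 10.27 and 10.32 log2. DNAJC11 of the mitochondrial membranes, at 10.10, 10.09 and 10.11, overlapped with DNAJC5, the cysteine string protein of vesicle exocytosis, at 10.11, 10.07 and 10.05. The histone chaperone DNAJC9 averaged 9.67 log2, the endosomal DNAJC13 (RME-8) 9.59, and DNAJC21, a ribosome maturation factor, 9.53. The ER reductase DNAJC10 (ERdj5) averaged 9.44 log2. Of the other genes above the bound, DNAJC14, DNAJC1, DNAJC30, DNAJC19, DNAJC2, DNAJC18, DNAJC16, DNAJC4, DNAJC3, DNAJC24, DNAJC6 and DNAJC17 had means from 9.21 down to 6.96 log2. The neuronal auxilin DNAJC6, which uncoats clathrin vesicles, had 7.29, 7.04 and 7.00 log2, and its widely expressed relative GAK averaged 8.98. Among them DNAJC14, an ER membrane protein, had one of the largest SDs, at 9.40, 9.17 and 9.05 log2. The lowest gene above the bound was DNAJC27, at 6.49, 6.45 and 6.42 log2, and the first below it was DNAJC15, of the mitochondrial inner membrane, at 6.08, 6.05 and 6.15. DNAJC12 (6.03) and DNAJC28 (5.35) followed. DNAJC22 had 5.19, 5.24 and 5.18 log2. The DNAJC5 relatives of testis came last, DNAJC5G between 3.99 and 4.10 log2 and DNAJC5B at 3.34, 3.44 and 3.40. Of the 26 neighbouring pairs in the order of DNAJC genes, 12 overlapped over the cultures, so that the order in the middle of this family is not resolved. A probe set shared by DNAJC25 and its read-through with GNG10 averaged 8.80 log2, while those shared by a read-through and its other partner, GNG10 or MOB4, averaged 10.09 and 8.57 and hold no separate member.

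**Figure D3:**
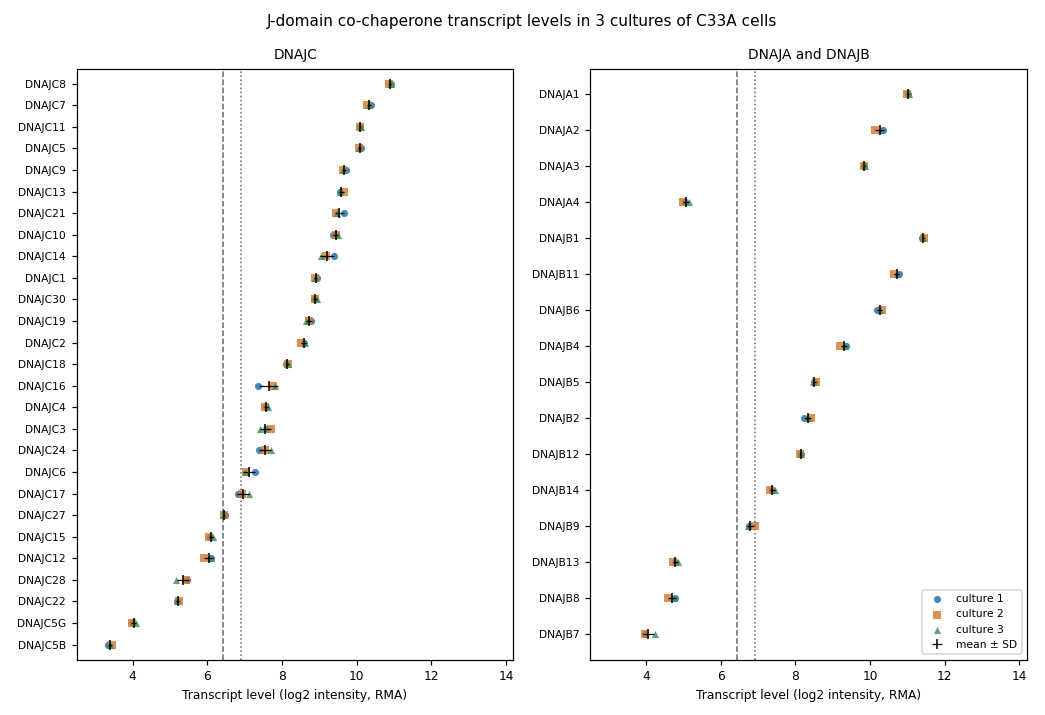
Transcript level (log2 intensity, x axis) of each protein-coding DNAJC (left), DNAJA and DNAJB gene (right), with 1 symbol per culture and the mean ± SD over 3 arrays in black. The dashed line is the bound of 6.42 and the dotted line the median of all other genes, 6.91. DNAJC genes form a nearly continuous slope from 10.90 to 3.39, while a gap separates DNAJA4 at 5.07 from the other DNAJA genes.

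Probe sets of 1 gene disagreed for DNAJB6 and DNAJC19. DNAJB6, which keeps polyglutamine proteins from aggregating, averaged 10.25 log2 over a pair of probe sets. The one whose first listed transcript is that of the short isoform had 11.04, 11.07 and 11.09 log2. The one whose first listed transcript is that of the long, nuclear isoform had 9.31, 9.57 and 9.45, a difference of 1.62 log2. Whether either probe set reads a single isoform was not tested. DNAJC19, a subunit of the mitochondrial import motor, had 9.59, 9.41 and 9.38 log2 on the higher probe set and 7.98, 8.06 and 7.90 on the lower, a difference of 1.48 log2. How far such gaps come from the binding of the probes themselves was not tested. DNAJB14 also shares a probe set with an uncharacterised locus, at 7.51, 7.58 and 7.55 log2, in decile 6 like its own.

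**Figure D4:**
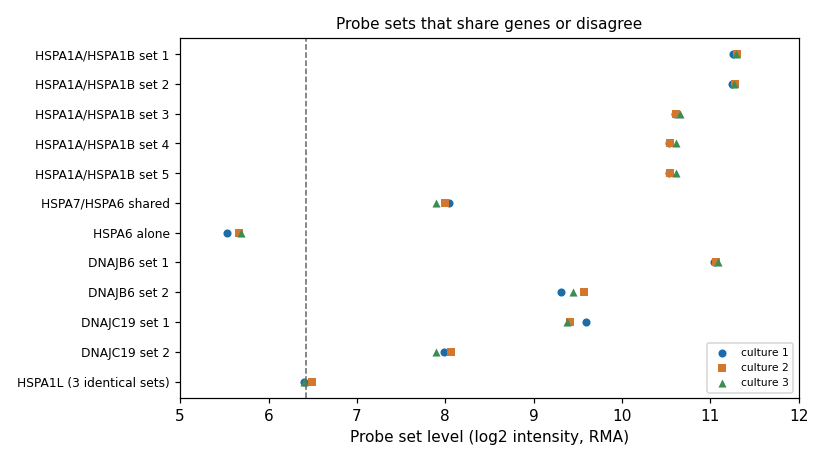
Level of single probe sets (log2 intensity, x axis) for genes whose probe sets share symbols or disagree (y axis), with 1 symbol per culture and a dashed line at the bound of 6.42. The 5 HSPA1A/HSPA1B probe sets lie between 10.53 and 11.30, while HSPA6 alone is below the bound and the probe set it shares with HSPA7 is near 8.

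By compartment, all 13 measured members on a list of ER chaperones were above the bound, against 56.4% of all genes, with a median of 8.90 log2. HSP90B1, HSPA5, DNAJB11 and HSPA13 were in decile 10, which holds 10% of all genes. Of 10 mitochondrial members, 8 were above the bound. HSPA9, HSPD1, DNAJC11 and DNAJA3 were in decile 10, while DNAJC15 and DNAJC28 were not above the bound.

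Regulators and helpers of the same machines, which are no members, were mostly above the bound, which 56.4% of all genes exceed. HSF1, the factor that binds the heat shock element, had 9.16, 9.08 and 9.11 log2, its inhibitor HSBP1 10.60, 10.57 and 10.58, and HSF4, best known from the lens, 6.62, 6.72 and 6.70. HSF2 was not measured by a probe set of its own. All 12 measured HSP70 exchange factors and co-chaperones were above the bound, from the ubiquitin ligase STUB1 (10.22 log2) and the mitochondrial exchange factor GRPEL1 (10.06) to BAG1 (7.91) and the ER exchange factor SIL1 (7.26). All 9 measured genes on the HSP90 helper list were above it as well. They were led by the HSP70 and HSP90 adaptor STIP1 (HOP), at 11.70, 11.70 and 11.70 log2, and PTGES3 (p23) at 11.40. SUGT1 (8.79) and TRAP1 (8.56) were lowest, and TRAP1 is itself the mitochondrial HSP90 rather than a co-chaperone. The 9 prefoldin and CCT partner genes ran from PFDN2 (10.35 log2) and PFDN5 (9.63) down to PFDN4 (8.34) and TXNDC9 (7.32). The mitochondrial AAA+ chaperones and proteases lay between CLPX at 10.67, followed by CLPP at 9.90, and CLPB at 8.79, preceded by LONP1 at 9.55. Of the other J-domain and alpha-crystallin genes, SEC63 was at 11.15, GAK at 8.98, HSCB at 7.42 and CRYAB, at 4.56 log2, below the bound.

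The cultures differed little in these genes. The median SD between cultures was 0.07 log2 among members and 0.08 log2 among other genes. In deciles 5 and 6, which hold 7 and 8 members, it was 0.17 and 0.15 among members, against 0.10 and 0.08 among other genes. Culture 1 gave the highest of the 3 values for 45 members (50%), against 39.2% of all genes. Culture 2 did so for 17 members (18.9%), against 32.6% of other genes, and culture 3 for 28 (31.1%), against 28.3%. The median deviation from a gene's own mean was 0.026, -0.027 and -0.00035 log2 among members in cultures 1, 2 and 3, against 0.0089, -0.0039 and -0.0040 among other genes. No test was made of this leaning, and its origin was not tested. The largest SDs were those of DNAJB3, at 5.02, 5.41 and 4.56 log2 (SD 0.43, n = 3), HSP90B3P, at 6.74, 6.11 and 6.25 (SD 0.33), HSPA12B (SD 0.31) and DNAJC16, at 7.35, 7.75 and 7.82 (SD 0.26). None of these is in the upper 4 deciles. In decile 10 the largest was that of HSP90AA2P, 4.46 times the median SD of genes in that decile.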

How the data were processed

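The authors made biotinylated single-stranded DNA from the RNA of 3 C33A cultures, hybridized it to Affymetrix Human Gene ST arrays, normalized the scans by RMA and processed them with oneChannelGUI. They deposited log2 intensities, 1 per probe set and array. Software versions, not given in the sources used here, could not be stated. Raw intensities were not used here. RMA gives the arrays a common distribution, which removes differences in overall intensity between cultures and compresses low signals.

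Symbols came from the array's platform annotation and were updated by Entrez identifier through RefSeq (GRCh38.p14). Of 33297 probe sets, 19460 carry 1 symbol and were averaged per gene, 1754 carry several and 12083 have none listed. All 90 members matched RefSeq. Genes were ranked by mean level into 10 deciles. Of the protein-coding members, CCT6A, DNAJC1, DNAJC22, DNAJC24, DNAJC5B, HSPA12B and HSPA14 had no window among the promoter sequences. Members of classes with up to 12 genes were given by culture. In larger classes this was done for the highest and lowest genes, those near the bound, with the largest SDs, with disagreeing probe sets or with a 3-unit element. Other members were named by their mean. All heat shock factors and the 2 highest and 2 lowest genes of each helper list were named.

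Members and lists were chosen with earlier results of these data known. No test was run, since there is 1 group. Alternatives left out each array, changed how probe sets, symbols and normalization were handled, and moved the bound, the decile and the motif. The functions were tested on simulated levels and sequences. Python 3.11.15, NumPy 2.4.6, pandas 2.3.3 and matplotlib 3.10.9 were used.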

Additional observations from a re-analysis of the deposited data

How the results depend on the processing

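No paired analysis was possible because all arrays belong to 1 group. With each culture left out in turn, the members above the bound numbered 63 to 65, those in decile 10 were 32 each time, and the median of the members minus that of all genes was 1.58 to 1.59 log2. That difference moved by more than its spread between cultures to 1.56 log2 with the highest probe set of each gene, to 1.60 with probe sets of several symbols counted, and to 1.73 with protein-coding genes only. The members in decile 10 were 31 of 90 with the highest probe set and 31 of 87 with only genes of 1 probe set. They were 33 of 95 with probe sets of several symbols counted and 29 of 77 with protein-coding genes only. The count above the bound was 51 (56.7%, against 37.2% of all genes) with the 99th percentile of the silent families, 69 (76.7%, against 64.9%) with the 90th, and 70 (77.8%, against 71.2%) without the keratin-associated protein genes. In that last setting the bound was 5.43 log2, and HSP90B3P, HSPA2, HSPB6, DNAJC15, DNAJC12 and HSPA6 lay above it. The count of members with a heat shock element was 21 with the 2-unit form and 7 in the whole promoter window. Of the 90 levels, 2 (DNAJB6 and DNAJC19) moved beyond their SD with the highest probe set, and none did under quantile normalization. That last step could move little, because RMA had already given the arrays a common distribution. Depth has no counterpart on these arrays. Below the bound a level is not told apart from background.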
